A study of Mus musculus with 4 samples.

Results

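Lysosomal hydrolases and membrane proteins are described here as 45 genes, found as the rows of the authors' table whose gene name equals one of the names, out of 55414 genes listed. They fall into 19 genes of glycosidases, sulfatases and their helpers, 10 genes of lipid breakdown, 10 membrane protein genes and 6 other hydrolase genes. RNA was sequenced from mouse peritoneal macrophages, which are phagocytes of the abdominal cavity. The cells had 24 h with LUP at 0.5 mg/ml (2 libraries, LUP replicates 1 and 2) or 24 h with vehicle, which was complete medium (2 libraries, vehicle replicates 1 and 2). What the abbreviation LUP stands for is not said in the labels. They give no strain, sex or age, nor whether replicates are separate animals or cultures, so p-values measure the spread between these libraries, which may be technical.

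The lysosome is the acidic compartment in which macrophages digest what they have taken up and what autophagy delivers. Soluble hydrolases are made in the endoplasmic reticulum and carried there largely on mannose 6-phosphate receptors. Heavily glycosylated proteins line the limiting membrane, and carriers and channels in it release the products. Stored substrate accumulates when a hydrolase or carrier is missing, and many of these genes are known from inherited storage diseases. Many lysosomal genes carry an E-box, CACGTG, within a longer motif bound by the transcription factors TFEB, TFE3 and MITF.

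Expected counts summed to 23617618 and 22460913 in the LUP libraries, against 19949818 and 23172691 in the vehicle libraries. The 11 macrophage markers summed to 21567 and 21760 TPM with LUP and 27380 and 27010 with vehicle (3 lower, 6 higher). Most of that sum was Lyz2, with 15652 and 15999 TPM with LUP and 22379 and 22088 with vehicle. Of all tested genes 23.7% were called lower and 27.1% higher (edgeR, adjusted p under 0.05). Lyz2 (1.31-fold) and Mertk (1.36-fold) were lower, and Csf1r (2.03-fold), Itgam (1.94-fold), Cd14 (3.34-fold) and Fcgr1 (3.35-fold) were higher. Cd68 (4098 and 4013 TPM with LUP, 4258 and 4161 with vehicle) and Adgre1 (587 and 584 TPM with LUP, 115.4 and 123.3 with vehicle), which was also higher, were present in every library. Of the large peritoneal macrophage markers, Gata6 was lower, with 1.34 and 1.10 TPM with LUP and 2.67 and 3.59 with vehicle. Timd4 was higher, with 0.88 and 0.65 TPM with LUP and 0 and 0.03 with vehicle. Its expected counts were only 28 and 20 with LUP and 0 and 1 with vehicle. Icam2, the remaining marker of the 11, was not called (5.38 and 3.70 TPM with LUP, 4.92 and 5.01 with vehicle). No T or NK cell marker (0 of 9) and no B cell marker (0 of 5) passed the filter on low counts. The T and NK cell markers summed to 2.79 and 1.87 TPM with LUP and 1.03 and 2.1 with vehicle, and the B cell markers to 0.89 and 0.62 TPM with LUP and 1.6 and 1.3 with vehicle. The 8 neutrophil markers summed to 92.5 and 89.7 TPM with LUP and 29.3 and 33.4 with vehicle, nearly all of it S100a8, with S100a9, Ly6g and Mpo listed at 0 in all 4 libraries. The 6 mast cell markers summed to 4.06 and 2.75 TPM with LUP and 3.86 and 3.52 with vehicle (1 higher of 4 tested). The 8 mesothelial and fibroblast markers summed to 116 and 87.3 TPM with LUP and 86.5 and 99.8 with vehicle (4 lower, 1 higher). Mitochondrially encoded RNA, 13 genes, summed to 23008 and 21971 TPM with LUP and 27036 and 27384 with vehicle (9 lower, 1 higher). The part of these differences in the results on lysosomal genes was not tested.

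Promoters from the RefSeq table (GRCm38.p6, 250 bases before to 50 after an annotated start) were matched by symbol for 39 of the 45 genes. They were searched on both strands for TCACGTG, the E-box with a T before it, which contains the shorter CACGTG and is contained in the palindrome TCACGTGA. TCACGTG was found in 11 of the 39 genes (28.2%), against 4.29% of the 27025 genes in the whole table and 7.04% of the 9953 tested genes with a promoter there. Counted over promoters, it was in 24.4% of the members' 45, in 3.77% of all 32851 and in 5.92% of those of tested genes. The full palindrome was found in the promoters of Cln3, Gla, Mcoln1 and Sumf1, which is 8.89% of the members' promoters against 0.974% of all and 1.85% of those of tested genes. Every member promoter with CACGTG also had TCACGTG, so the shorter motif gave the same 24.4%, against 7.15% of all promoters and 9.98% of those of tested genes. By class, TCACGTG stood in 7 of 17 glycosidase and sulfatase genes, 0 of 9 lipid genes, 3 of 8 membrane protein genes and 1 of 5 other hydrolase genes. These matches describe letters in a window and not binding.

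Promoters of 3 genes are shown: those that hold the motif among the members called at least 1.5-fold changed or most abundant in their class. Each is printed in the direction of transcription with the match in capitals. The 1st is Lgmn, the gene of the protease legumain (chr12:102439043-102439342, minus strand), shown at the one of its annotated starts whose window holds a match. The 2nd is Sgsh, the gene of heparan N-sulfatase (chr11:119355461-119355760, minus strand). The 3rd is Lamp1, the gene of an abundant glycoprotein of the lysosomal membrane (chr8:13158911-13159210, plus strand).
Lgmn: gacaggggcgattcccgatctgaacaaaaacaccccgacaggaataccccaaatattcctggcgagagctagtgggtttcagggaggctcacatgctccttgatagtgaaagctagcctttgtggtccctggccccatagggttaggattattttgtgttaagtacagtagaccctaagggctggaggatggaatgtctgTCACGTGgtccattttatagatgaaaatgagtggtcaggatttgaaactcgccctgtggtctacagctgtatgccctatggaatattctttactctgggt
Sgsh: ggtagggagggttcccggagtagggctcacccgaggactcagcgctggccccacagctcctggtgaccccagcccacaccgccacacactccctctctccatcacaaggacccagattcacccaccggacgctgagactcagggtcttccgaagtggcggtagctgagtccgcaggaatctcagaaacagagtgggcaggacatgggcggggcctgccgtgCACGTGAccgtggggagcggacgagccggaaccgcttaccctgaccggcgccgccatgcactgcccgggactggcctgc
Lamp1: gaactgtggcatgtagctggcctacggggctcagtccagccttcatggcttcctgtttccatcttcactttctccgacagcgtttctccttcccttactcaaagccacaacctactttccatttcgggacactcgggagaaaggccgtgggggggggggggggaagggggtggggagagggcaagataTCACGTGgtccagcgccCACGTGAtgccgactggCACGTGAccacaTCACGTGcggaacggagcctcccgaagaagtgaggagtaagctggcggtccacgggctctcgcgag
Counted at the first C of CACGTG, the match lay 49 bases before the start in Lgmn and 29 bases before it in Sgsh. Lamp1 had 4 matches, counted likewise at 61, 45, 28 and 15 bases before the start. The capitals read TCACGTG or its reverse complement CACGTGA.

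**Figure D1:**
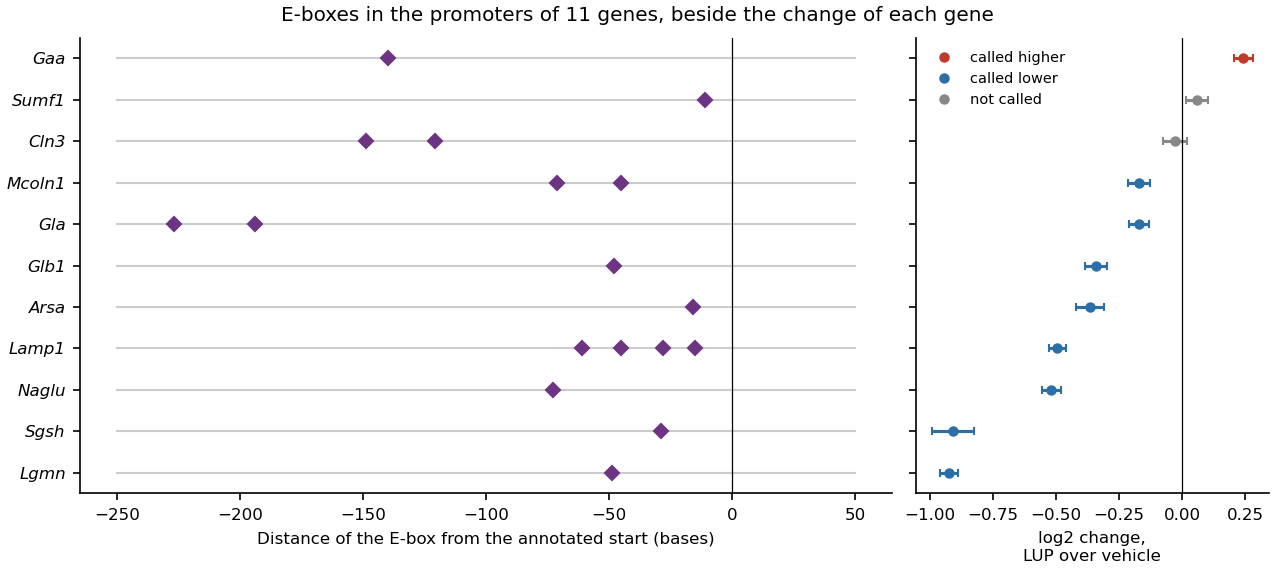
Left, distance of each TCACGTG match (either strand) from the annotated start, in bases and counted at the first C of CACGTG, in the promoters of the 11 member genes that held one, with the window from 250 bases before to 50 after as a grey line. Right, the fitted log2 change of the same gene, LUP over vehicle, with its standard error. There 8 genes were lower, Gaa was higher and Cln3 and Sumf1 were not called. Of all tested genes 23.7% were called lower and 27.1% higher.

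Of the 11 genes with TCACGTG, 8 were lower with LUP, 1 was higher and 2 were not called (median log2 change -0.34, from -0.93 to 0.24). Of the 28 genes with a promoter and no match, 21 were lower, 5 higher and 2 not called (median -0.27, from -1.48 to 2.74). Over all 45 genes 73.3% were lower and 17.8% higher, against 23.7% and 27.1% of all tested genes (edgeR, adjusted p under 0.05). The difference between the sets with and without a match was not tested. Genes without a match included those with the largest change in each direction, Pla2g15 and Acp5.

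Setting LUP against vehicle asks how the digestive and membrane genes of the macrophage lysosome differed after exposure. Most were lower with LUP. By edgeR's quasi-likelihood test with Benjamini-Hochberg adjustment over 13355 tested genes, 33 of the 45 genes (73.3%) were lower at an adjusted p under 0.05, a call made for 23.7% of all tested genes. A further 8 (17.8%) were higher, against 27.1% of all tested genes, and 4 were not called. All 45 passed the filter on low counts. In either direction 41 were called, against 50.8% of all tested genes. The median log2 change over the 45 was -0.28, and over all tested genes it was -0.00. In bulk RNA, fewer cells of a type and less RNA per cell cannot be told apart.

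The changes were mostly small. Of the 41 called genes 30 changed by less than 1.5-fold, and their median change was 1.33-fold in either direction. A change of at least 1.5-fold was called lower for 8 genes (background 9.7% of tested genes) and higher for 3 (background 10.8%). The 8 were Pla2g15, Hyal1, Galc, Lgmn, Sgsh, Man2b1, Hexa and Galns. The 3 were Acp5, Acp2 and Aga, all from the class of other hydrolases. In the authors' TPM the 2 groups did not overlap for 44 genes. In 36 of them both LUP libraries were lower (background 42.3%) and in 8 both were higher (background 27.6%). Ratios of TPM ran below the fitted changes by a median of 0.10 on the log2 scale, over the members (-0.1032). So they did over the tested genes with a mean above 1 TPM in both groups (-0.1017).

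**Figure D2:**
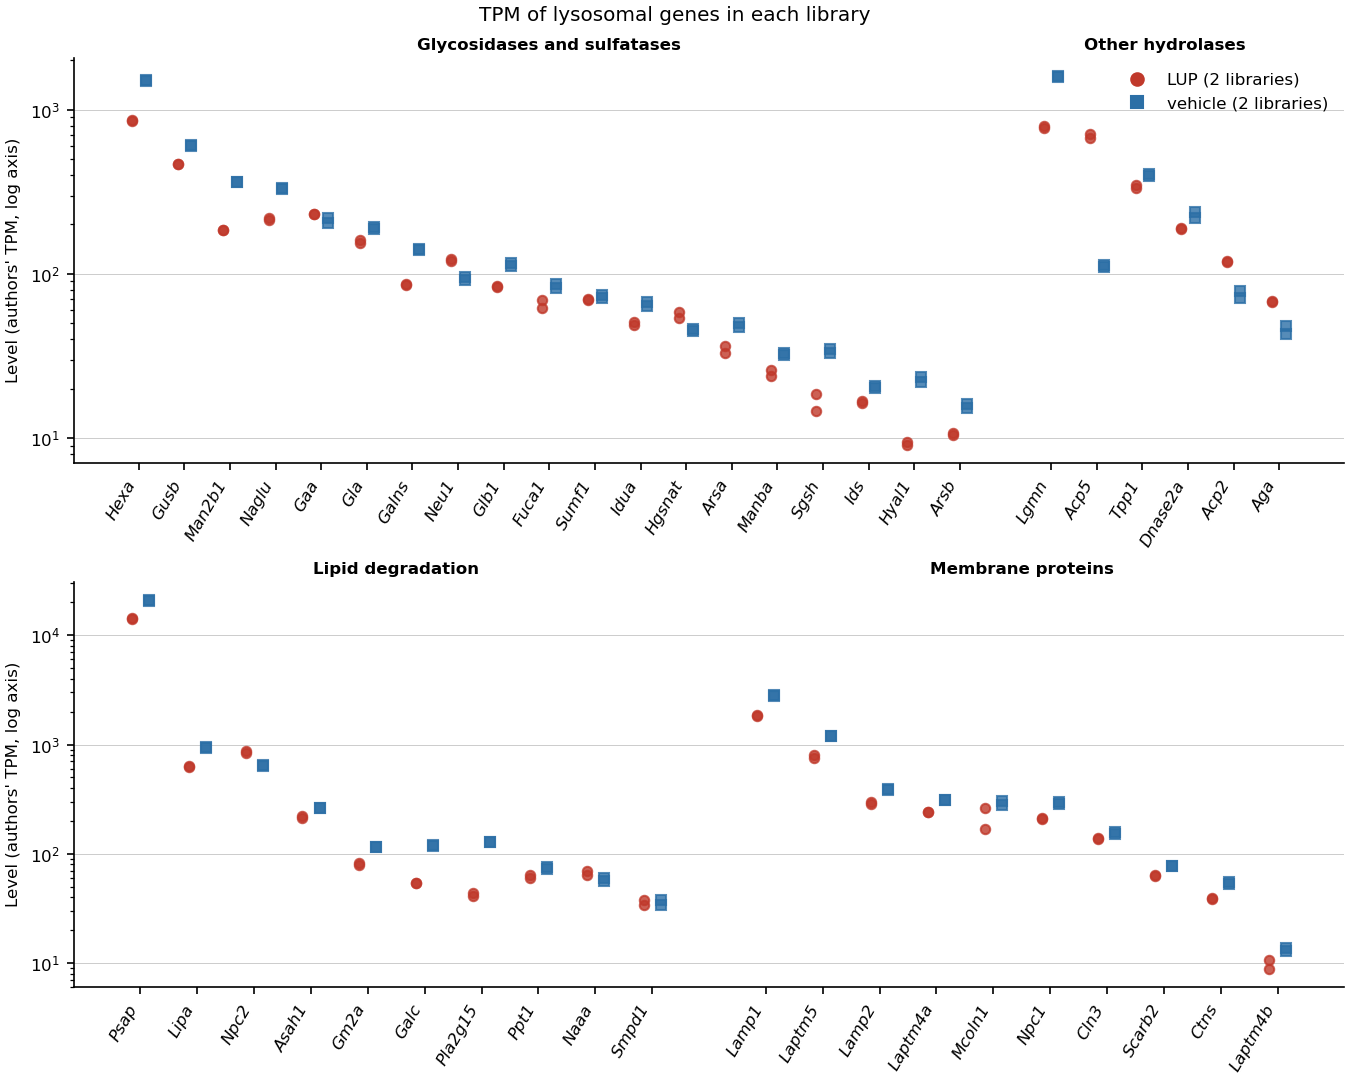
Level of each of the 45 genes in each library, in the authors' TPM on a log axis, with LUP libraries as red circles left of vehicle libraries as blue squares. The LUP circles lie below the squares for 36 genes and above them for 8, and the groups overlap for Smpd1.

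By mean TPM over the 4 libraries, Laptm4b had the lowest level (9.77 ± 1.34 TPM with LUP, 13.3 ± 0.49 TPM with vehicle). Psap had the highest (14251 ± 162 TPM with LUP, 20794 ± 127 TPM with vehicle, SD, n = 2 each). With LUP alone, Hyal1 was lower than Laptm4b, at a mean of 9.25 TPM. Mean TPM over the 4 libraries exceeded 1000 for 4 genes, lay between 100 and 1000 for 19 and was under 100 for 22. Within a group the libraries stood close together, with a median coefficient of variation over the genes of 1.94% with LUP and 2.23% with vehicle. The 45 genes summed to 25248 and 24952 TPM with LUP, against 35294 and 35124 TPM with vehicle, a ratio of 0.713. Their share of the reads was 4.12% and 4.16% with LUP, against 5.59% and 5.50% with vehicle. Psap alone held 56.9% and 56.7% of the summed TPM with LUP and 59.2% and 59.0% with vehicle. Without Psap the genes summed to 10850 ± 47.8 TPM with LUP and 14415 ± 6.95 TPM with vehicle (SD, n = 2 each), a ratio of 0.753.

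Glycosidases and sulfatases strip sugars and sulfate groups from glycoproteins, glycolipids and glycosaminoglycans, the long sugar chains of the matrix. Of their 19 genes 15 were lower with LUP, 3 were higher and 1 was not called, with a median log2 change of -0.28. Over all tested genes 23.7% were lower and 27.1% higher. Taken apart, 10 of the 12 glycosidase genes were lower and 2 higher (median -0.27), and all 5 sulfatase genes were lower (median -0.47). Summed over the class, the level was 2758 and 2775 TPM with LUP and 4000 and 4000 TPM with vehicle, a ratio of 0.692.

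Hexa, the alpha subunit of beta-hexosaminidase that acts on gangliosides, was the most abundant gene of the class. It had 857 and 870 TPM with LUP, against 1509 and 1501 TPM with vehicle. Both LUP libraries lay below both vehicle libraries, and the fitted difference was 1.62-fold lower (log2 change -0.70, SE 0.04, adjusted p = 6.44e-12). Man2b1, lysosomal alpha-mannosidase of glycoprotein breakdown, had 185 and 185 TPM with LUP, against 364 and 364 TPM with vehicle. The libraries of each group were almost equal and the groups did not overlap, at 1.84-fold lower (log2 change -0.88, SE 0.04, adjusted p = 2.16e-13).

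Hyal1, a hyaluronidase that cuts hyaluronan, was among the least abundant genes and fell most in the class. It had 9.07 and 9.43 TPM with LUP, against 21.9 and 23.5 TPM with vehicle, 2.36-fold lower (log2 change -1.24, SE 0.07, adjusted p = 2.36e-11). The groups were well apart. Sgsh, whose promoter is shown above, removes sulfate from heparan sulfate. It had 14.7 and 18.7 TPM with LUP, against 32.9 and 34.9 TPM with vehicle. The LUP libraries differed more from each other than the vehicle libraries did, yet both lay below them, at 1.88-fold lower (log2 change -0.91, SE 0.08, adjusted p = 3.12e-08). Galns, a sulfatase of keratan and chondroitin sulfate, had 85.1 and 86.6 TPM with LUP, against 142 and 140 TPM with vehicle, 1.52-fold lower (log2 change -0.61, SE 0.04, adjusted p = 4.39e-10). Its groups did not overlap.

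The other sulfatases were Arsb of dermatan sulfate (1.38-fold lower, 10.6 ± 0.21 TPM with LUP and 15.7 ± 0.50 TPM with vehicle), Arsa of sulfatide (1.29-fold lower, 34.6 ± 2.6 TPM with LUP and 48.9 ± 1.7 TPM with vehicle) and Ids of heparan and dermatan sulfate (1.19-fold lower). Among glycosidases, Naglu of heparan sulfate was 1.43-fold lower (215 ± 3.5 TPM with LUP, 332 ± 1.1 TPM with vehicle) and Glb1, beta-galactosidase, 1.27-fold lower (83.4 ± 0.59 TPM with LUP, 113 ± 3.5 TPM with vehicle). Gusb, beta-glucuronidase, was 1.22-fold lower (467 ± 2.5 TPM with LUP, 607 ± 6.1 TPM with vehicle; SD, n = 2 each throughout). The falls of Fuca1 of fucose removal (1.19-fold), Manba, beta-mannosidase (1.18-fold), Idua of heparan and dermatan sulfate (1.17-fold) and Gla, alpha-galactosidase A (1.13-fold), were smaller. Adjusted p-values of these genes by edgeR ran from 1.29e-09 for Naglu to 0.00232 for Manba. Fuca1 depended in size on a single library: its log2 change was -0.26 over all libraries and -0.15 without LUP replicate 1.

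The 3 higher genes of the class act on different substrates. Hgsnat, the membrane enzyme that acetylates heparan sulfate ends, was 1.40-fold higher (56.4 ± 3.6 TPM with LUP, 45.5 ± 0.83 TPM with vehicle, adjusted p = 1.71e-07). Neu1, the lysosomal sialidase, was 1.36-fold higher (122 ± 2.1 TPM with LUP, 93.9 ± 3.6 TPM with vehicle, adjusted p = 7.33e-08). Gaa, acid alpha-glucosidase of glycogen, was 1.18-fold higher (232 ± 0.62 TPM with LUP, 211 ± 8.8 TPM with vehicle, adjusted p = 1.69e-05), a call not made by limma on log2(TPM + 1) (adjusted p = 0.0756). Sumf1, the enzyme of the endoplasmic reticulum that activates all sulfatases, was not called (log2 change 0.06, SE 0.04, adjusted p = 0.271). It had 70.8 and 69.0 TPM with LUP, against 71.6 and 74.1 TPM with vehicle, so the sign was opposite in TPM.

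**Figure D3:**
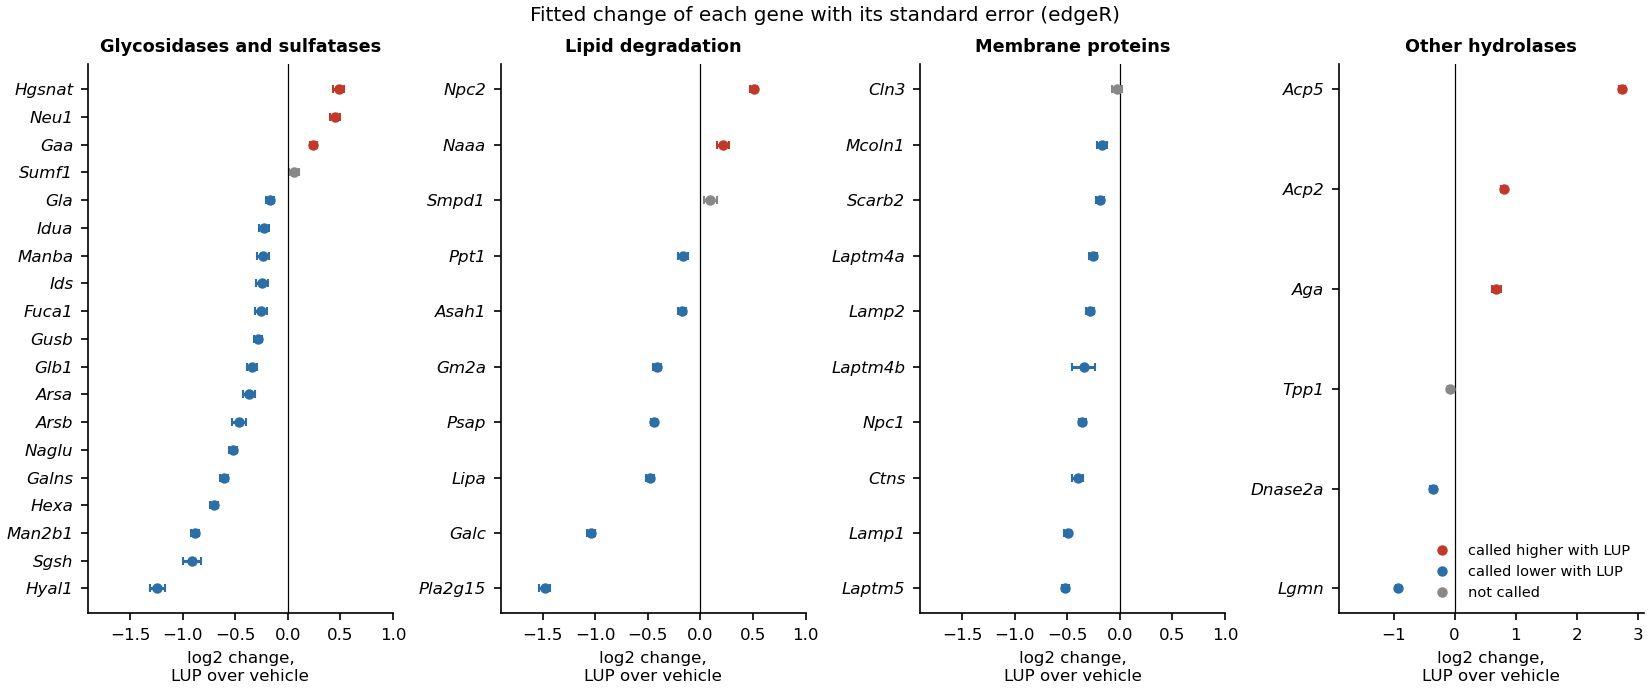
Fitted log2 change of each gene, LUP over vehicle, with its standard error, in the 4 classes; the axis of the other hydrolases is wider. Called genes lie mostly left of 0 in the first 3 classes, with 15 of 19, 7 of 10 and 9 of 10 lower. They lie on both sides among the other hydrolases, with Acp5 at 2.74. Of all tested genes 23.7% were called lower and 27.1% higher.

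Grouped by the substrate they take apart, the genes of a chain did not all move one way. In heparan sulfate breakdown Ids, Idua, Sgsh, Naglu and Gusb were lower and Hgsnat was higher. Of 10 genes of ganglioside and sphingolipid breakdown, 8 were lower, Neu1 was higher and Smpd1 was not called. The background over all tested genes was 23.7% lower and 27.1% higher. In glycoprotein breakdown Man2b1, Manba and Fuca1 were lower, and Neu1 and Aga were higher.

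Enzymes and helper proteins of lipid breakdown release fatty acids, ceramide and cholesterol from membranes and lipoproteins. Of their 10 genes 7 were lower with LUP, 2 were higher and 1 was not called, with a median log2 change of -0.30. Over all tested genes 23.7% were lower and 27.1% higher. The class summed to 16436 and 16138 TPM with LUP, against 23251 and 23081 TPM with vehicle, a ratio of 0.703.

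Pla2g15, lysosomal phospholipase A2, had the largest fall of all 45 genes. It had 41.2 and 44.2 TPM with LUP, against 128 and 128 TPM with vehicle. The LUP libraries stood far below the vehicle libraries, at 2.79-fold lower (log2 change -1.48, SE 0.05, adjusted p = 6.88e-15). Galc, which removes galactose from galactosylceramide, had 54.5 and 54.0 TPM with LUP, against 119 and 120.2 TPM with vehicle. The groups were again well apart, at 2.05-fold lower (log2 change -1.04, SE 0.04, adjusted p = 5.13e-14).

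Psap encodes prosaposin, the precursor of the saposins that present sphingolipids to their hydrolases, and was the most abundant of the 45 genes. It had 14365 and 14136 TPM with LUP, against 20884 and 20704 TPM with vehicle. Both LUP libraries were lower, by 1.36-fold (log2 change -0.44, SE 0.03, adjusted p = 3.33e-10), and its share of all reads was 2.42% and 2.44% with LUP and 3.41% and 3.34% with vehicle. Lipa, the acid lipase of cholesteryl esters and triglycerides, was 1.39-fold lower (626 ± 7.6 TPM with LUP, 936 ± 15.7 TPM with vehicle, adjusted p = 6.28e-10). Gm2a, the activator that lifts ganglioside to hexosaminidase, was 1.33-fold lower (81.0 ± 2.1 TPM with LUP, 116 ± 1.0 TPM with vehicle). Asah1, acid ceramidase, was 1.13-fold lower, and Ppt1, which removes fatty acids from proteins, 1.12-fold lower (adjusted p = 0.00734, and 0.134 without vehicle replicate 1).

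Npc2, the soluble carrier that hands cholesterol to the membrane protein NPC1, was 1.42-fold higher (852 ± 25.6 TPM with LUP, 640 ± 8.0 TPM with vehicle, log2 change 0.51, SE 0.03, adjusted p = 3.89e-10). Its partner Npc1, a membrane gene, was 1.28-fold lower (209 ± 3.2 TPM with LUP, 289 ± 8.6 TPM with vehicle, adjusted p = 1.03e-07), so the pair moved in opposite directions. Naaa, an amidase of fatty acid ethanolamides, was 1.16-fold higher (adjusted p = 0.00404). The call on Naaa was lost in TPM (adjusted p = 0.0747 with limma on log2(TPM + 1)), and its log2 change of 0.22 was 0.13 without LUP replicate 2. Smpd1, acid sphingomyelinase, had 37.5 and 33.8 TPM with LUP, against 34.0 and 37.8 TPM with vehicle. Its groups overlapped and it was not called (log2 change 0.10, SE 0.06, adjusted p = 0.233), and with each library left out in turn its log2 change ran from 0.03 without vehicle replicate 1 to 0.16 without vehicle replicate 2.

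Membrane proteins of the lysosome protect its limiting membrane, move cholesterol, cystine and ions across it, and receive or sort other proteins. Of their 10 genes 9 were lower with LUP and 1 was not called, against 23.7% lower and 27.1% higher of all tested genes. By edgeR 0 were higher, also at an unadjusted p under 0.05, as in each of the 12 alternatives. Their fitted log2 changes lay closer together than in the other classes, from -0.52 to -0.03 (median -0.31), and none reached 1.5-fold. Summed, they gave 3857 and 3840 TPM with LUP, against 5589 and 5588 TPM with vehicle, a ratio of 0.689.

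Lamp1, whose promoter with 4 E-boxes is shown above, had 1882 and 1832 TPM with LUP, against 2842 and 2782 TPM with vehicle. It led the class in level, and both LUP libraries were lower, by 1.41-fold (log2 change -0.50, SE 0.03, adjusted p = 3.52e-10). Laptm5, a lysosomal membrane protein of blood cells, was 1.43-fold lower (780 ± 29.7 TPM with LUP, 1198 ± 9.5 TPM with vehicle, adjusted p = 2.14e-10). Its relatives Laptm4b and Laptm4a were 1.27-fold and 1.19-fold lower. Laptm4b was the rarest of the 45 genes by mean TPM over the 4 libraries. Its call (edgeR, adjusted p = 0.0125) was lost without LUP replicate 2 or without vehicle replicate 2. Its log2 change was -0.34 over all libraries, and -0.24 and -0.33 in those fits.

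Ctns, the cystine exporter, was 1.32-fold lower (39.0 ± 0.37 TPM with LUP, 54.0 ± 2.1 TPM with vehicle). Lamp2, also needed for fusion of autophagosomes with lysosomes, was 1.22-fold lower (293 ± 9.0 TPM with LUP, 387 ± 8.6 TPM with vehicle). Scarb2, the receptor that carries glucocerebrosidase to lysosomes, was 1.14-fold lower (63.2 ± 0.41 TPM with LUP, 77.8 ± 0.20 TPM with vehicle). Adjusted p-values of these 3 genes by edgeR lay between 1.93e-06 and 0.000504.

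Mcoln1, the calcium channel TRPML1, had 168 and 264 TPM with LUP, against 280.4 and 302 TPM with vehicle. LUP replicate 1 stood apart in TPM but not in expected counts, which were 4098 and 4166 with LUP and 4195 and 4707 with vehicle. The fitted difference was 1.13-fold lower (adjusted p = 0.00375), its log2 change of -0.17 was -0.11 without LUP replicate 1, and the call was lost without vehicle replicate 1 (adjusted p = 0.063). Cln3, a membrane protein named for Batten disease, had 139 and 138 TPM with LUP, against 160 and 153 TPM with vehicle. It was not called on counts (log2 change -0.03, SE 0.05, adjusted p = 0.665) and was lower in TPM (adjusted p = 0.0303 with limma on log2(TPM + 1)).

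The 6 other hydrolases, which cut proteins, phosphate esters and DNA, went both ways, with 2 lower, 3 higher and 1 not called (median log2 change 0.31). The background over all tested genes was 23.7% lower and 27.1% higher. They summed to 2197 and 2199 TPM with LUP, against 2454 and 2455 TPM with vehicle. Acp5, the tartrate-resistant acid phosphatase of macrophages and osteoclasts, had the largest rise of all 45 genes. It had 674 and 715 TPM with LUP, against 111 and 114 TPM with vehicle, 6.67-fold higher (log2 change 2.74, SE 0.05, adjusted p = 4.41e-19). The LUP libraries were far above the vehicle libraries.

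Acp2, the lysosomal acid phosphatase, had 117 and 120 TPM with LUP, against 71.1 and 78.4 TPM with vehicle, 1.75-fold higher (log2 change 0.80, SE 0.04, adjusted p = 2.78e-12). Aga, which frees asparagine from glycoprotein sugar chains, had 67.5 and 68.1 TPM with LUP, against 48.0 and 43.0 TPM with vehicle, 1.61-fold higher (log2 change 0.68, SE 0.07, adjusted p = 1.43e-07). Neither gene's groups overlapped. Lgmn, the protease whose promoter is shown above, had 799 and 773 TPM with LUP, against 1591 and 1596 TPM with vehicle. It was the most abundant of the 6 and 1.90-fold lower (log2 change -0.93, SE 0.03, adjusted p = 3.09e-14), with the groups well apart. Dnase2a, the acid nuclease of engulfed DNA, was 1.28-fold lower (adjusted p = 9.16e-07). Tpp1, a tripeptidyl peptidase, had 347 and 334 TPM with LUP, against 395 and 404 TPM with vehicle. It was not called on counts (log2 change -0.07, SE 0.03, adjusted p = 0.0969) and was lower in TPM (adjusted p = 0.0105 with limma on log2(TPM + 1)).

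**Figure D4:**
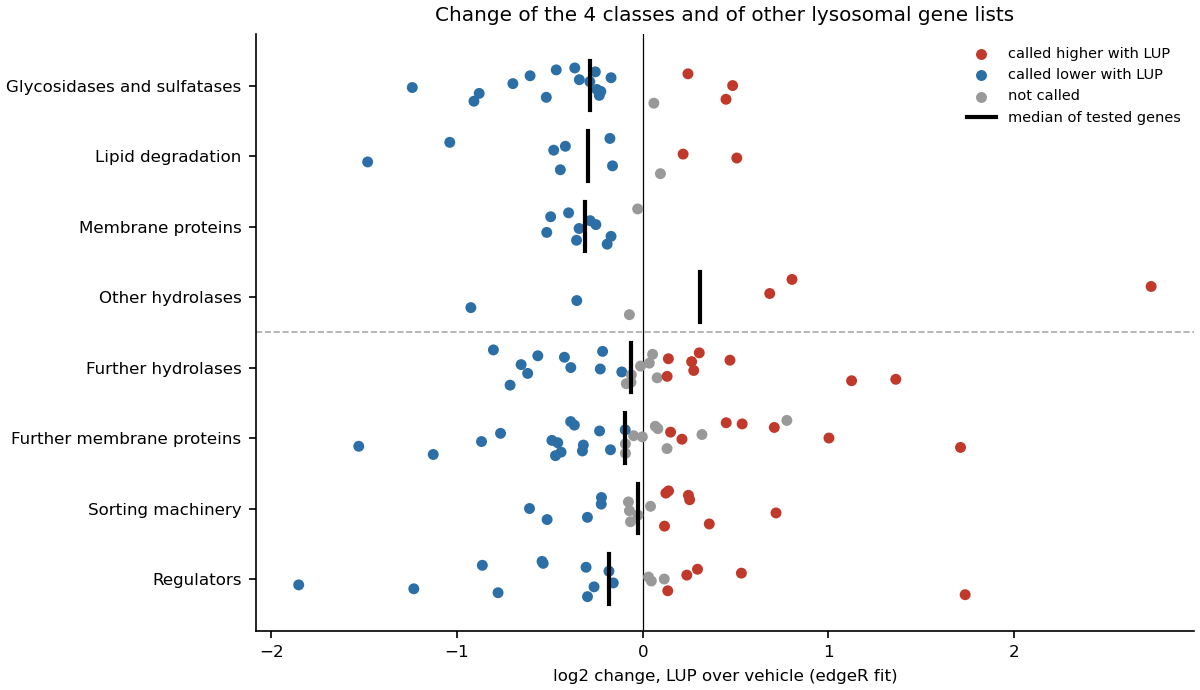
Fitted log2 change, LUP over vehicle, of every tested gene in the 4 classes (above the dashed line) and in 4 other lists of lysosomal genes (below it), with a black bar at the median of each. Medians of the first 3 classes lie between -0.31 and -0.28, and those of the other lists between -0.18 and -0.03.

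Other genes of the pathway, in 4 lists apart from the 45, had medians nearer to 0 than the first 3 classes, while their summed levels differed from list to list. Of all tested genes, 23.7% were lower and 27.1% higher. Of 25 tested further lysosomal hydrolases 10 (40.0%) were lower and 8 (32.0%) higher (median log2 change -0.06). The summed level of that list was 7053 and 7051 TPM with LUP and 9824 and 9833 TPM with vehicle, a ratio of 0.718. That sum rests largely on its most abundant genes, Ctsa and Pld3, which were 1.48-fold and 1.54-fold lower. Ctsa had 2371 and 2455 TPM with LUP, against 3922 and 3929 TPM with vehicle. Pld3 had 1279 and 1298 TPM with LUP, against 2146 and 2134 TPM with vehicle. Rnaset2a (2.57-fold) and Rnaset2b (2.18-fold), acid ribonucleases, were higher, but they are near-identical copies and how their reads were split is uncertain. Arsg, a sulfatase, was 1.75-fold lower and Smpdl3a, a phosphodiesterase, 1.64-fold lower. Of 31 tested further membrane proteins 15 (48.4%) were lower and 7 (22.6%) higher (median -0.09, ratio of summed TPM 0.997). Slc48a1, a heme carrier, was 3.27-fold higher (618 and 599 TPM with LUP, 201 and 198 TPM with vehicle), and Slc11a1, the metal carrier NRAMP1 of phagosomes, 2.00-fold higher. Slc46a3 (2.89-fold) and the channel gene Tpcn1 (2.19-fold) were lower.

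Of 17 genes that sort hydrolases to lysosomes 5 (29.4%) were lower and 7 (41.2%) higher, against 23.7% and 27.1% of all tested genes. Their median was -0.03 and the ratio of summed TPM 1.05. M6pr, the cation-dependent mannose 6-phosphate receptor, was 1.64-fold higher (371 and 356 TPM with LUP, 237 and 236 TPM with vehicle, adjusted p = 4.19e-12), and Vps29 of the retromer coat 1.28-fold higher. Gnptg, a subunit of the enzyme that makes the mannose 6-phosphate tag, was 1.53-fold lower, and the sorting receptor Sort1 1.43-fold lower.

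Of 19 regulators 11 (57.9%) were lower and 5 (26.3%) higher, against 23.7% and 27.1% of all tested genes (median -0.18, ratio of summed TPM 0.855). Tfeb had 46.3 and 40.7 TPM with LUP, against 79.5 and 77.7 TPM with vehicle. Both LUP libraries were lower, by 1.72-fold (log2 change -0.78, SE 0.05, adjusted p = 2.06e-10). Tfe3 was 1.10-fold higher (adjusted p = 0.013), with 72.5 and 69.4 TPM with LUP and 69.5 and 67.7 TPM with vehicle, which overlap. Mitf was not called (19.5 and 19.1 TPM with LUP, 20.9 and 21.6 TPM with vehicle, adjusted p = 0.671). Their relative Tfec, a member of the same factor family, was 3.33-fold higher (24.3 and 24.2 TPM with LUP, 8.46 and 6.91 TPM with vehicle). Rragd, a small GTPase that recruits mTORC1 and its substrates to the lysosome, was 2.35-fold lower, and Fnip2, a folliculin partner, 1.82-fold lower. RNA levels of these factors say nothing of where the proteins lie in the cell.

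**Figure D5:**
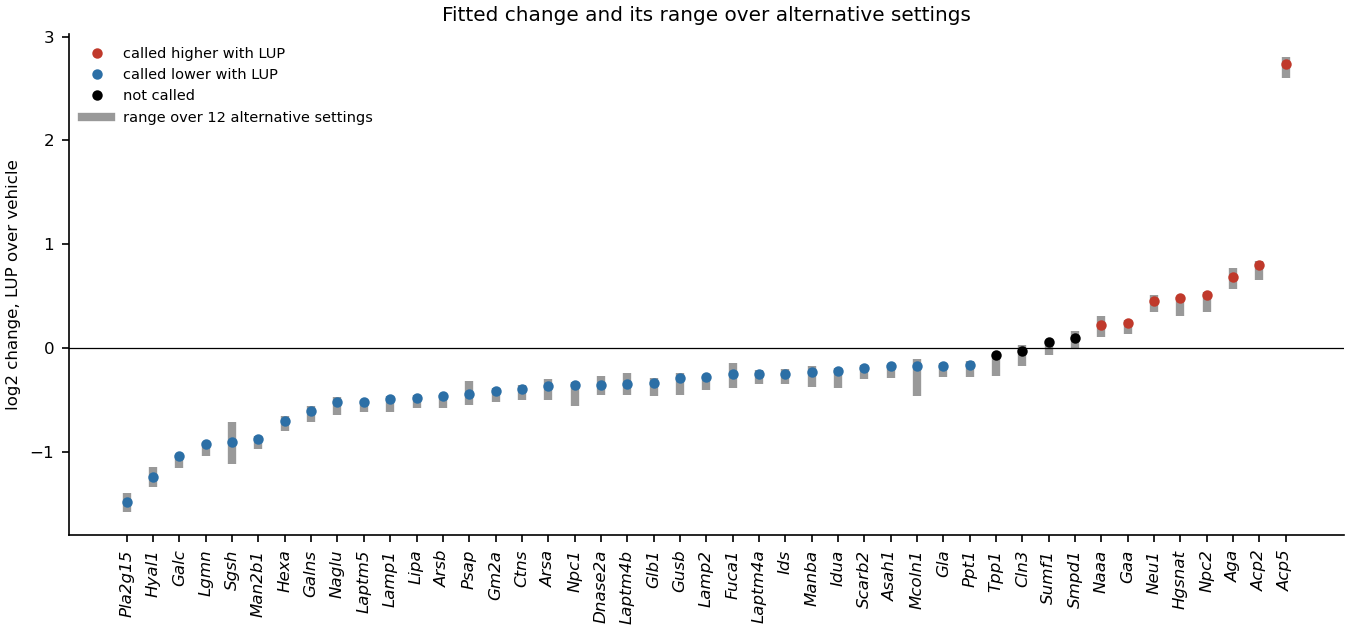
Fitted log2 change of each of the 45 genes, LUP over vehicle (point), and its range over 12 alternative settings (grey bar), ordered by the change. The bars of the 8 genes called at least 1.5-fold lower and the 3 called at least 1.5-fold higher lie on one side of 0, and those of Cln3, Sumf1 and Smpd1 cross it.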

How the data were processed

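RNA-seq of 4 libraries (2 with LUP, 2 with vehicle) was used from one table of the whole series. Expected counts per gene and library were estimated by the authors and deposited unscaled; reads with several possible genes are split, so values can be fractional. TPM per library is the authors' own deposited value. The authors also deposited a fold (a ratio), a log2 fold and a p-value per gene, all running vehicle over LUP. With that sign turned, the log2 fold of the authors' deposited table had the sign of the fitted change for 45 of 45 genes. The tools, per the submitters' processing notes, were fastp, HISAT2, StringTie and RSEM. Genome build, annotation and strand setting are not given in the sources used here, so reads of overlapping or antisense genes cannot be told apart. Of the 45 genes, 24 had whole counts in all 4 libraries (within 0.001).

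Rounded counts went into edgeR's quasi-likelihood test (edgeR 4.0.16, R 4.3.3; TMM scaling, default low-count filter, treatment the sole term), with Benjamini-Hochberg adjustment over 13355 genes and a threshold of 0.05. Standard errors (SE) of edgeR's log2 changes were derived from the test, as the absolute log2 change divided by the square root of its F statistic. The code was tested on simulated data. Alternatives were DESeq2 1.42.0 and its size factors, limma 3.58.1 on quantile-normalised log2 CPM and on log2(TPM + 1) or log2(TPM + 0.1) with at least 1 TPM in 2 libraries, no filter or a mean CPM of 10, a replicate block, and each library left out.

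Genes were chosen with earlier results of these data known, among them a lysosome list with more lower than higher genes, so the direction is not independent evidence. All 45 are named. Values per library are given for called genes of at least 1.5-fold whose higher group reached 10 TPM and for the most abundant gene of each class, and for Mcoln1 and the 4 genes not called, chosen after their values were seen. Other lists name up to 4 called genes with the largest change and 10 TPM, with Tfeb, Tfe3 and Mitf added. Ctsa and Pld3 were added for their level after their values were seen. Errors are SD over 2 libraries. Depth ran from 19949818 to 23617618 counts, and 2 libraries a group limit the precision.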

Additional observations from a re-analysis of the deposited data

How the results depend on the processing

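Over the 12 alternatives run, 30 of the 33 lower and 6 of the 8 higher calls held in every one. Lost at least once were those on Ppt1, Mcoln1, Laptm4b, Gaa and Naaa, while Tpp1 and Cln3 were called lower in some. Over the alternatives the adjusted p ran from 0.000459 to 0.134 for Ppt1, 5.05e-06 to 0.162 for Mcoln1, 0.00191 to 0.11 for Laptm4b, 1.57e-09 to 0.0784 for Gaa, 6.95e-06 to 0.167 for Naaa, 2.51e-06 to 0.313 for Tpp1 and 0.0197 to 0.801 for Cln3. The log2 change of Tpp1 was -0.27 after quantile normalisation, -0.11 with a mean CPM of 10, and -0.23 in both TPM fits. Over all genes, 4449 were called with limma on log2(TPM + 1) and 4414 on log2(TPM + 0.1), against 6785 by edgeR; those 2 fits tested 12059 genes. Called higher in the lipid class was 1 gene, against 2, after quantile normalisation and in both TPM fits. The median change over the 45 genes was then -0.3809 (quantile), -0.3808 (TPM + 1) and -0.3868 (TPM + 0.1), against -0.2829. The median over genes of the difference from edgeR's log2 change was -0.09, -0.10 and -0.1014 in the same fits, so a log2 change below that size may be that shift, and the median change of all genes was -0.0719, -0.075 and -0.0835, against -0.0011. Relative to edgeR the sign turned for Sumf1 (-0.0679, -0.0591 and -0.0599 in these 3 fits) and Smpd1 (-0.0074, -0.0099 and -0.0101), neither called. Cln3 turned to 0.0186 without LUP replicate 1 and 0.0309 without vehicle replicate 1, and ran from -0.0866 to 0.0309 over the libraries left out in turn. DESeq2 lost only Laptm4b (adjusted p = 0.11). Summed over the 45 genes, LUP over vehicle was 0.763 in CPM with TMM scaling and 0.753 in TPM without Psap, both added after seeing the data. The cause of these differences was not tested.

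With a replicate block, 6606 genes were called and all 45 genes kept their call or lack of one. Libraries with the same number did not deviate together (r = -0.07 over 13355 genes). A correlation over genes between single differences cannot decide whether such libraries share an animal or a day, which the labels do not say.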
